A study of Mus musculus with 2 samples.

Results

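Chemokines are small secreted proteins that steer leukocytes along gradients held on the extracellular matrix. They act through G protein-coupled receptors on the migrating cell, and the ligands are named by the spacing of their first cysteines (CC, CXC, CX3C and XC). At the implantation site they are known for placing natural killer cells, monocytes and macrophages in the decidua, the transformed uterine stroma around the embryo. In decidual stromal cells of the mouse the genes for several T cell-attracting chemokines are known to be silenced.

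The chemokine ligands and receptors were taken from the platform annotation by name, as all probe sets with a single gene symbol that began with Ccl, Cxcl, Cx3cl, Xcl, Ccr, Cxcr, Cx3cr or Xcr followed by a number and at most a single letter. This gave 65 probe sets of 48 genes, out of 20380 probe sets of 12393 genes with a single symbol. There were 32 ligand genes (42 probe sets) and 16 receptor genes (23 probe sets), and 14 genes had more than 1 probe set. All 48 genes matched RefSeq (assembly GRCm38.p6) by gene identifier, where 47 are protein coding. The exception, Cxcl11, is annotated there as a transcribed pseudogene.

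The arrays measured RNA of whole implantation sites, dissected on day 8 of pregnancy from 4-month-old females. Both groups were on a mixed C57Bl/6J X OLA129 background. The control group, whose Cbs alleles are not specified in the labels, had 1 array. The Cbs null group, of females homozygous for loss of cystathionine beta-synthase, an enzyme that removes homocysteine, had 1 array. How many animals or sites entered an array and the genotype of the conceptus were not given in the sources used here. With 1 array per genotype no difference below has a replicate check and no test was possible. The question addressed is which chemokines are expressed at these sites and which read differently without maternal Cbs. Whole sites were profiled, so fewer cells of a type and less RNA per cell cannot be told apart.

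On the list of stroma and decidua markers, 10 of 12 genes were at or above the limit defined below. Acta2 and Vim were the brightest, and Acta2 and Myh11 are also genes of smooth muscle. The 12 genes summed to a signal of 24896.6 in control and 25430.7 in Cbs null. Acta2, Vim and Myh11 made up most of both sums, which therefore do not measure decidua alone. The 2 probe sets of Cbs read 30.3 and 29.9 in control and 23.8 and 22.3 in Cbs null, below that limit on both arrays. They do not check the genotype, because the deleted part of the gene is not given. Signal at the 3' end over the 5' end was 1.07 and 1.15 for Gapdh and 1.54 and 1.61 for beta-actin, control before Cbs null. For 18S ribosomal RNA the log2 ratio (Cbs null to control) was -0.43, -0.66 and -0.90 in its 3 quality control probe sets.

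A probe set was called expressed on an array when its signal reached 70.0, the median of all signals of both arrays. Few chemokine probe sets did. On the control array 10 of 65 (15.4%) were expressed, against 50.7% of all probe sets with a single gene. On the Cbs null array 16 of 65 (24.6%) were expressed, against 51.5%. All 10 of the control array were also expressed on the Cbs null array, and they belonged to 7 genes. By their mean over both arrays 12 probe sets of 9 genes (18.5%) reached the limit, against 51.3% of all. The limit is relative to other probe sets and is no detection call. Probe sets differ in affinity, so ratios are taken within a probe set. Neither the limit nor the sums over gene lists rank genes by amount of RNA.

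**Figure D1:**
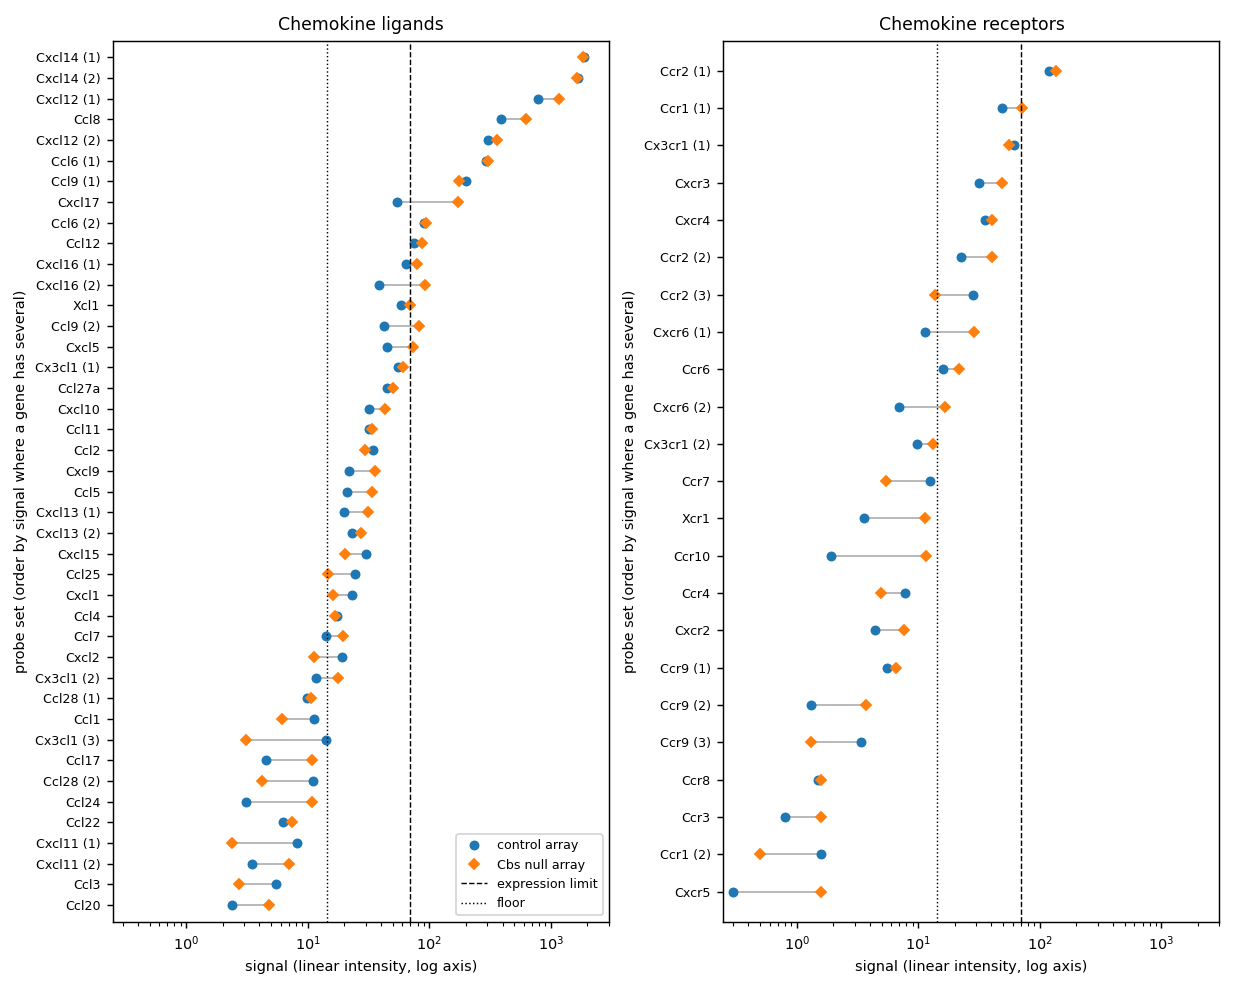
Signal of each of the 65 chemokine probe sets on the control array (circles) and the Cbs null array (diamonds), ligands at left and receptors at right, on a log axis of linear intensity. The dashed line is the expression limit of 70.0 and the dotted line the floor of 14.3. Most probe sets lie left of the dashed line on both arrays, and Cxcl17 crosses it.

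Of the 32 ligand genes 9 were expressed on 1 array or both, namely Cxcl14, Cxcl12, Ccl8, Ccl6, Ccl9, Ccl12, Cxcl16, Cxcl17 and Cxcl5. Of the 16 receptor genes, Ccr2 and Ccr1 were expressed. The other 37 genes, 23 of them ligands and 14 receptors, stayed below the limit on both arrays. In 17 genes every probe set was below the floor of 14.3 on both arrays, the 25th percentile of all signals. Values below this floor were raised to it before ratios were taken, so these 17 genes have no ratio.

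All log2 ratios below take the Cbs null signal over that of control. Among the 12 probe sets kept by mean signal, 1 was at least 2-fold higher in Cbs null, against 0.632% of all 10448 kept probe sets. None was at least 2-fold lower, against 0.345%. Ratios above 0 were found in 9 of the 12, against 53.2% of all kept probe sets. By gene, at the brightest kept probe set, 7 of 9 were above 0, against 55.1% of all kept genes. After quantile normalization it was 11 of the 12, against 49.6%, with the 2 probe sets of Cxcl14 added at 0.01. With the limit at the 75th percentile it was 4 of 6, against 50.3%. The median ratio was 0.21, beside 0.02 for all kept probe sets. The probe sets of Cxcl17 and the brighter one of Cxcl16 passed the limit through their Cbs null value alone, so the difference helped to admit them. The 10 probe sets at the limit on both arrays ran from -0.21 to 0.68 with a median of 0.13, beside 0.01 for all 10012 such probe sets. Of these 10, 7 were above 0, against 53.0% of all such probe sets.

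The CXC ligand Cxcl17, which mucosal epithelia are known to secrete, was the member furthest apart. Its single probe set (1451610_at) read 54.4 in control and 171.5 in Cbs null. The control value was below the expression limit and the Cbs null value above it. The probe set thus entered the kept set, in which it is ranked here, through its Cbs null value alone. The ratio of 1.66, or 3.15-fold, ranked 16 among the 10448 kept probe sets from the highest down. It was 1.44 with a pseudocount in place of the floor, the lowest of the alternatives. Of the kept probe sets in the same, dimmest, tertile of signal, 95% had ratios between -0.59 and 0.68.

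The uterine epithelial markers were higher on the same array. Of 14 genes of this list 12 were at the limit, 11 with a ratio above 0, against 55.1% of all kept genes. Their median was 0.59, beside 0.02 for all kept genes. The list, like the others, was chosen with earlier results of these data known, so its count and median are no independent support. All 14 summed to 6968.5 in control and 23991.0 in Cbs null, and none was below the floor on both arrays. Without Prss28, Prss29 and Spink1, which carry most of that difference, the other 11 summed to 3273.2 in control and 4825.4 in Cbs null. Prss29 and Prss28, serine proteinases of the uterine glands, had 1.78 and 2.86, and Spink1, a secreted trypsin inhibitor, had 3.13. Cdh1, the adhesion protein of epithelia, had -0.02 and was chosen after its value was seen. The part of this marker list in the Cxcl17 ratio was not tested.

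Ccl8, a CC ligand that macrophages are known to produce and that acts on the receptor Ccr8 in the mouse, was the highest of the members at the limit on both arrays. Its probe set (1419684_at) read 390.1 in control and 624.8 in Cbs null. The ratio was 0.68, 1.60-fold, and 1.75% of all kept probe sets had a higher ratio. It lay above the range of -0.46 to 0.48 that held 95% of the brightest tertile. Under the alternatives it stayed between 0.66 and 0.68. Ccr8 itself read 1.5 and 1.6, below the floor on both arrays.

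Ccl12, the neighbour of Ccl8 in the gene order of RefSeq, attracts monocytes through Ccr2. It read 74.8 in control and 86.7 in Cbs null, a ratio of 0.21. Both values were above the expression limit. The tandem array holds 6 member genes in the order Ccl2, Ccl7, Ccl11, Ccl12, Ccl8 and Ccl1, of which Ccl12 and Ccl8 were expressed. Ccl2, the main monocyte attractant of the group, read 34.7 and 29.8, a ratio of -0.22. Ccl7 read 14.2 and 19.6 with its control value below the floor, which gives a ratio of at least 0.45. Ccl11, eotaxin, read 32.0 and 33.7, a ratio of 0.07, and Ccl1 was below the floor on both arrays. The ratios of the array thus had both signs, and the genes that were expressed are those next to each other.

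Cxcl12, the stromal ligand of Cxcr4 that retains and guides many leukocytes, was higher in both of its probe sets. The brighter one (1448823_at) read 777.2 in control and 1160.9 in Cbs null, a ratio of 0.58 or 1.49-fold. The other (1417574_at) read 301.9 and 360.3, a ratio of 0.26 or 1.19-fold. All 4 values were above the expression limit, and the probe sets had the same sign but differed in size. The brighter ratio lay above the 95% range of its tertile, -0.46 to 0.48, and the other lay inside that of the middle tertile, -0.47 to 0.56.

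Sequences upstream of the start are shown for Ccl8 and Ccl12, the expressed neighbours, and for Cxcl12, whose brighter probe set had the next highest ratio after Ccl8 among probe sets at the limit on both arrays. Each is the 250 bases before the start in RefSeq (GRCm38.p6), 5′ to 3′ on the plus strand. They lie at chr11:82114935-82115184, chr11:82101595-82101844 and chr6:117168285-117168534. Capitals mark matches to TATAAA, the TATA box, and GGGCGG, the GC box, each searched on both strands with overlaps allowed.
Ccl8: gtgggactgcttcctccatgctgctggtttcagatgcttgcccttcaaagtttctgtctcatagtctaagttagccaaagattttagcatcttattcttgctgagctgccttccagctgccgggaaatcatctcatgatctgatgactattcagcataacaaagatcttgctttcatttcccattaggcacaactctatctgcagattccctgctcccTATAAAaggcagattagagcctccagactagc
Ccl12: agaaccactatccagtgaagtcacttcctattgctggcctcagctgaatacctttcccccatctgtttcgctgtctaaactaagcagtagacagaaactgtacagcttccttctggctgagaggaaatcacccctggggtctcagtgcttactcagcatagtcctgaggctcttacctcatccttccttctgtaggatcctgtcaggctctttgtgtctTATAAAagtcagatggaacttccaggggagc
Cxcl12: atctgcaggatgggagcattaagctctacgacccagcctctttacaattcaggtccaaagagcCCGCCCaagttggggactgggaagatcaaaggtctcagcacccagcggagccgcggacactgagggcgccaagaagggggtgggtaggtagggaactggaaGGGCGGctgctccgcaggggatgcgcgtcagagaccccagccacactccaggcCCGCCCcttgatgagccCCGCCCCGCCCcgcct

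The TATAAA match begins 32 bases before the start in Ccl8 and 31 bases before it in Ccl12, and neither window holds a GGGCGG match. Cxcl12 has 5 GGGCGG matches, a pair of which overlap, and no TATAAA match. The GC content of the windows is 44.8% for Ccl8, 48.4% for Ccl12 and 64.4% for Cxcl12, beside a median of 52.0% over all promoters. RefSeq windows were matched for 35 of the 48 member genes. TATAAA occurs in 9 of the 35 (25.7%), against 13.0% of 27025 promoters of the same length, and GGGCGG in 5 (14.3%), against 32.9%. The NF-kB consensus motif, searched in the same way, occurs in 8 (22.9%), against 7.01%, and those are Ccl1, Ccl20, Ccl9, Ccr1, Ccr3, Cxcl1, Cxcl10 and Cxcl2. Of these 8 genes Ccl9 and Ccr1 were expressed on an array. These are letter matches in a window, which say nothing of binding.

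**Figure D2:**
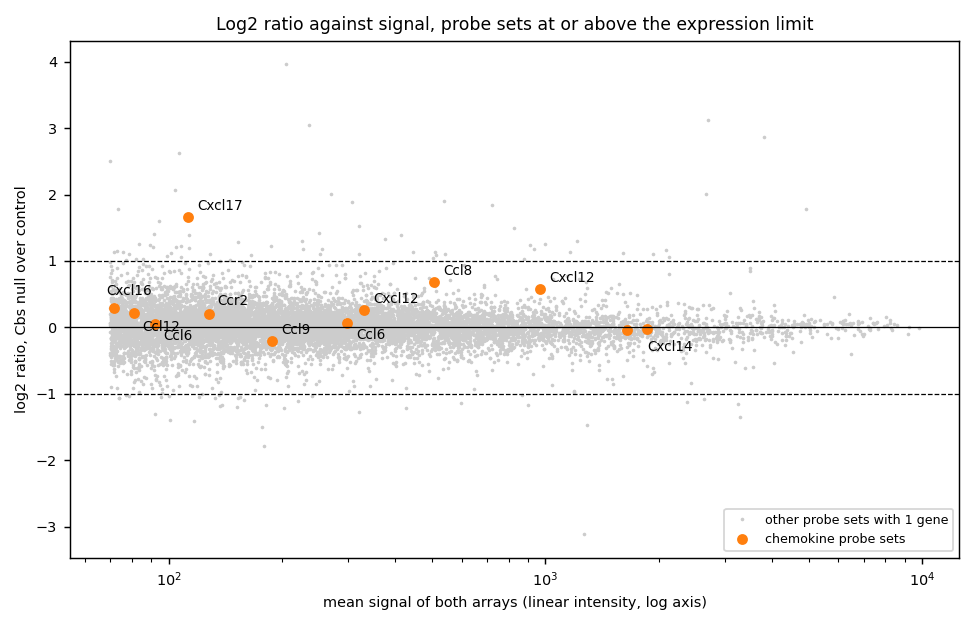
Log2 ratio of Cbs null over control against the mean signal of both arrays (log axis) for the probe sets at or above the expression limit, with the 12 chemokine probe sets in colour and others in grey. Dashed lines mark 2-fold. Cxcl17 lies at 1.66, Ccl8 and the brighter Cxcl12 probe set at 0.68 and 0.58, and the rest between -0.21 and 0.30.

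Cxcl14, a CXC ligand of epithelia and stroma, had nearly the same signal on both arrays. Its probe sets read 1876.9 and 1675.6 in control and 1843.9 and 1627.8 in Cbs null. The ratios were -0.03 and -0.04, and both turned to 0.01 after quantile normalization. Ccl6, a ligand of Ccr1 made by macrophages, also differed little. Its probe sets read 291.1 and 90.2 in control and 305.5 and 93.4 in Cbs null, ratios of 0.07 and 0.05. In each of these 2 genes the probe sets had the same sign, and no ratio was over 0.07 in size.

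Ccl9, a further Ccr1 ligand next to Ccl6 in the order of protein-coding genes, gave opposite signs. Its brighter probe set read 201.9 in control and 175.0 in Cbs null, a ratio of -0.21. The dimmer one read 42.3 and 83.0, a ratio of 0.97, below the limit in control and above it in Cbs null. The direction of Ccl9 is therefore not settled by these arrays. Ccl5, Ccl3 and Ccl4, which lie beside them, were below the limit on both arrays.

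Cxcl16, a membrane-anchored ligand of Cxcr6 that can be shed, was higher in both probe sets but by different amounts. The brighter read 64.3 in control and 78.9 in Cbs null, a ratio of 0.30. The other, whose identifier marks possible matches to several transcripts, read 38.4 and 92.1, a ratio of 1.26 or 2.40-fold. Both control values were below the expression limit and both Cbs null values above it. The mean signal of the brighter, 71.6, was just inside the limit and that of the other just outside. Its receptor Cxcr6, found on T and natural killer cells, had control values of 11.4 and 7.0, below the floor. Cxcr6 read 28.7 and 16.7 in Cbs null, at least 2.01-fold and 1.17-fold higher. Raising the floor to the 40th percentile brought the brighter ratio to 0.00.

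Cxcl5, a neutrophil attractant that epithelial cells can produce, read 45.1 in control and 73.3 in Cbs null. It passed the limit on the Cbs null array alone, and the ratio was 0.70 or 1.63-fold. The other CXC members of the same tandem array lay below the limit and read lower in Cbs null. Cxcl1 read 23.0 and 16.1, a ratio of -0.51, and Cxcl15 read 30.2 and 20.1, a ratio of -0.59. Cxcl2 read 19.1 and 11.2, a ratio of -0.42 against the floor. Cxcr2, on which Cxcl1 and Cxcl2 act, was below the floor on both arrays, at 4.4 and 7.7. Of the 10 neutrophil markers 8 were on the array and 3 at the limit. S100a8 had -0.35 and Lcn2 1.04. S100a9, the partner of S100a8, was below the limit by its mean, from 15.7 in control to 113.0 in Cbs null, a ratio of 2.85 opposite in sign to that of S100a8. The 8 summed to 1342.1 in control and 1802.6 in Cbs null. Lcn2 and Ltf read 329.0 and 192.0 in control and 676.6 and 366.2 in Cbs null, together a larger rise than that of the sum. Camp, Ngp and Mpo, below the limit, had -0.02, -0.03 and 0.12, so the list gives no common direction for neutrophil markers. Elane, which neutrophil precursors express, was below the floor on both arrays. Ltf and Lcn2 are also known products of uterine epithelium, and the part of either marker list in the Cxcl5 ratio was not tested.

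**Figure D3:**
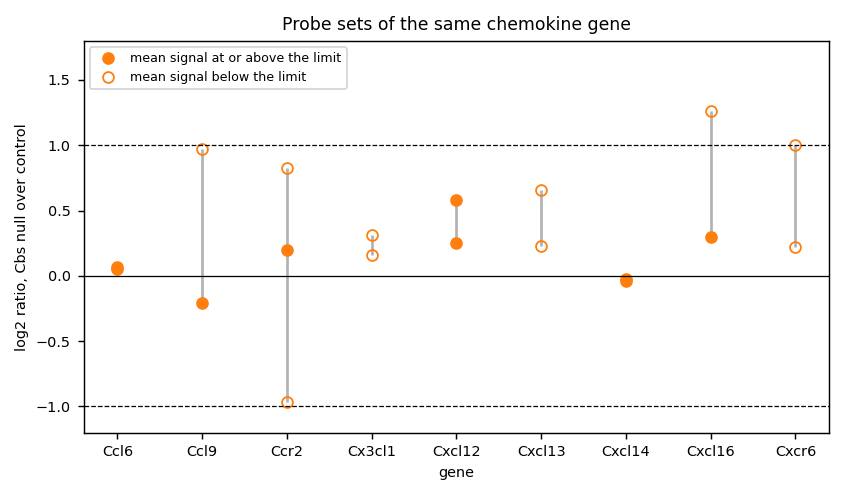
Log2 ratio of Cbs null over control for each probe set of the 9 chemokine genes with at least 2 probe sets above the floor on an array, joined by a line per gene. Filled points have a mean signal at or above the limit, open points below it. In 7 genes all points shown share a sign, and in Ccl9 and Ccr2 they do not.

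Among the receptors, Ccr2, which brings inflammatory monocytes into tissue, was expressed in 1 of its 3 probe sets. That one read 119.0 in control and 136.5 in Cbs null, a ratio of 0.20. The others read 22.6 and 28.0 in control and 40.1 and 13.8 in Cbs null, ratios of 0.83 and, against the floor, -0.97. The 3 probe sets thus disagreed in sign, and the ratio of the expressed one is small. Ccr1, a receptor of monocytes, macrophages and neutrophils, read 49.1 in control and 72.0 in Cbs null, a ratio of 0.55. Only the Cbs null value of Ccr1 reached the limit, and its other probe set was below the floor on both arrays.

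Macrophages and dendritic cells are known to carry Ccr1 and Ccr2, and macrophages to produce Ccl8. Most markers of these cells were higher on the Cbs null array, by differing amounts. Of 15 genes of this list on the array 9 were at the limit, 8 with a ratio above 0, against 55.1% of all kept genes. The median was 0.52. All 15 summed to 5843.3 in control and 8240.9 in Cbs null, and none was below the floor on both arrays. H2-Aa, which presents antigen as part of MHC class II, had 0.52 and Lyz2, lysozyme of myeloid cells, had 0.54. Cd74 and H2-Ab1, also of the MHC class II pathway, had 0.72 and 0.97, while Csf1r had 0.21 and Adgre1, the F4/80 antigen, had -0.00. Below the limit, Itgam, Itgax, Flt3 and Aif1 were above 0, Fcgr1 had 0.00 and Zbtb46 had -0.30. All but H2-Aa and Lyz2 were chosen after their values were seen. The part of this marker list in the chemokine ratios was not tested.

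The ligands of Cxcr3, which draw activated T cells and natural killer cells and are among those silenced in decidual stroma, stayed below the limit on both arrays. Cxcl9 read 21.9 in control and 36.0 in Cbs null, a ratio of 0.72, and Cxcl10 read 31.9 and 43.3, a ratio of 0.44. Cxcl11 was below the floor in both probe sets. Cxcr3 read 31.7 and 49.1, a ratio of 0.63, and Ccl5, another T cell attractant, read 21.2 and 33.6, a ratio of 0.66. All 4 measured values were higher in Cbs null, at mean signals that reached percentile 40.2 of all probe sets at most. Of all probe sets below the limit with a value above the floor, 50.9% had a ratio above 0. Of the chemokine probe sets among them 72.4% did, so these 4 do not stand apart from the other dim members. T and B cell markers were mostly dim, with 1 of 11 genes on the array at the limit and 7 below the floor on both arrays, Cd3e, Cd3d, Cd4 and Cd8a among them. Ighm, the heavy chain of immunoglobulin M, had 0.94 in its brightest probe set, while its other 3 at the limit had 0.84, 0.12 and -0.31. The 11 genes summed to 170.3 in control and 248.3 in Cbs null. Their part in these ratios was not tested.

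Xcl1, which natural killer cells release, was just below the limit at 58.4 in control and 69.9 in Cbs null, a ratio of 0.26. Xcr1, its receptor on a class of dendritic cells, was below the floor on both arrays. Of the other 11 natural killer cell markers on the array, 8 had ratios of the opposite sign to Xcl1 and 3 the same sign. Of 12 genes of that list on the array, Xcl1 among them, 9 were at the limit, 8 with a ratio below 0. Their median was -0.60, and 55.1% of all kept genes had a ratio above 0. The 12 summed to 4463.0 in control and 2587.5 in Cbs null, with Gzmb at -0.77 and Gzma at -1.16. Ncr1 at 0.26, Tbx21 at 0.06 and Klrk1 at 0.05 had the same sign as Xcl1. None of the 12 was below the floor on both arrays, and the part of this list in the Xcl1 value was not tested.

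Cx3cl1, a membrane-bound ligand of endothelium and epithelium, had its brightest probe set at 54.8 in control and 61.1 in Cbs null, a ratio of 0.16. Cx3cr1, its receptor on macrophages, read 60.9 and 55.5, a ratio of -0.13. Both were below the limit on both arrays. Cxcr4, the signalling receptor of Cxcl12, read 35.3 and 40.8, a ratio of 0.21. Ackr3, which scavenges Cxcl12 and lies outside the name rule, read 720.2 and 614.5, a ratio of -0.23. The Ackr3 ratio lay inside the range given above for the brightest tertile, -0.46 to 0.48. The dimmer Cxcl12 probe set, at 0.26, also lay inside the range of its own tertile. Only the brighter Cxcl12 probe set, at 0.58, lay above its range. Whether ligand and scavenger changed together was not tested, and Cxcr4 was below the limit on both arrays.

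The ligands and receptors that recruit lymphocytes to skin, gut and lymphoid tissue were dim. Ccl27a read 44.5 in control and 49.8 in Cbs null, while its receptor Ccr10 and the mucosal ligand Ccl28 were below the floor on both arrays. Ccl25, which guides cells to thymus and gut, read 24.5 and 14.8, a ratio of -0.73, and all 3 probe sets of its receptor Ccr9 were below the floor. Cxcl13, which organises B cell follicles, had 0.66 and 0.23 in its probe sets, from 19.8 and 23.2 in control to 31.2 and 27.2, and Cxcr5 was below the floor. Ccr6 read 16.0 and 21.8, a ratio of 0.45, and its ligand Ccl20 was below the floor. Ccl17 and Ccl22 with their receptor Ccr4, Ccl24 with Ccr3, and the receptor Ccr7 were below the floor on both arrays. Ccl3 was as well, and Ccl4 read 17.4 and 16.7.

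Of 15 receptors grouped with their member ligands, Ccr1 and Ccr2 had both the receptor and a ligand expressed on an array. In 4 groups, those of Ccr8, Cxcr2, Cxcr4 and Cxcr6, a ligand was expressed and the receptor was not, and in 9 neither was. The 29 probe sets below the limit with a value above the floor had a median ratio of 0.26, beside 0.01 for all 5773 such probe sets. Of the 29, 21 (72.4%) were above 0, against 50.9% of all. Probe sets at least 2-fold apart were 2 of the 29, the dimmer of Cxcl16 and the brighter of Cxcr6, and 4.54% of all such probe sets were. Outside the name rule, 4 probe sets carried several symbols with at least 1 chemokine among them. Of those, 2 were at the limit on both arrays, and the ratios of the 4 ran from -0.11 to 0.23.

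In their brightest probe sets, genes around the chemokines showed few differences of 2-fold. Of the family members outside the name rule, 10 were on the array and 5 at the limit, 2 with a ratio above 0 and 3 below, with a median of -0.15. They included Rarres2, chemerin, at 0.02, and, chosen after their values were seen, Pf4, a platelet chemokine, at 0.27 and the scavenger Ackr1 at -0.15. Of the genes of receptor signalling 21 of 26 were at the limit, 10 above 0 and 11 below, with a median of -0.05. Rgs2 and Cdc42 had -0.19 and -0.05. Rgs16, which shortens G protein signals, read 103.1 and 51.0 in its brightest probe set, 2.02-fold lower, while its others were below the floor. Gnai3 had -0.13 in its brightest probe set but -1.03 in its other, which was also at the limit by its mean.

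Of the regulators of chemokine transcription 15 of 22 were at the limit, 10 above 0 and 5 below, with a median of 0.10. Nfkbia, the inhibitor that NF-kB induces, had 0.07 and Hif1a -0.12. Of the proteins that cut or hold chemokines 12 of 15 were at the limit, 9 above 0 and 3 below, with a median of 0.17. Dcn, a matrix proteoglycan, had 0.20 and Mmp2, a protease that can cleave Cxcl12, had 0.48. Sdc4, a heparan sulfate carrier, was 3.58-fold higher in its brightest probe set, from 314.8 to 1127.2, but its other probe set had -0.38. Sdc2 had -0.12 in its brightest probe set, but its others had -1.50 and -0.33. The median of all 7108 genes at the limit was 0.02, with 0.619% of them 2-fold or more above control and 0.281% 2-fold or more below it. The endothelial list had a median of -0.12 over 10 genes, 4 above 0 and 6 below, with its brightest, Cd34 and Plvap, at -0.20 and -0.36. The stroma and decidua list had a median of 0.02, with 7 genes above 0 and 3 below. Bmp2 had -1.21 and Prl8a2, chosen after its value was seen, had 0.515.

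**Figure D4:**
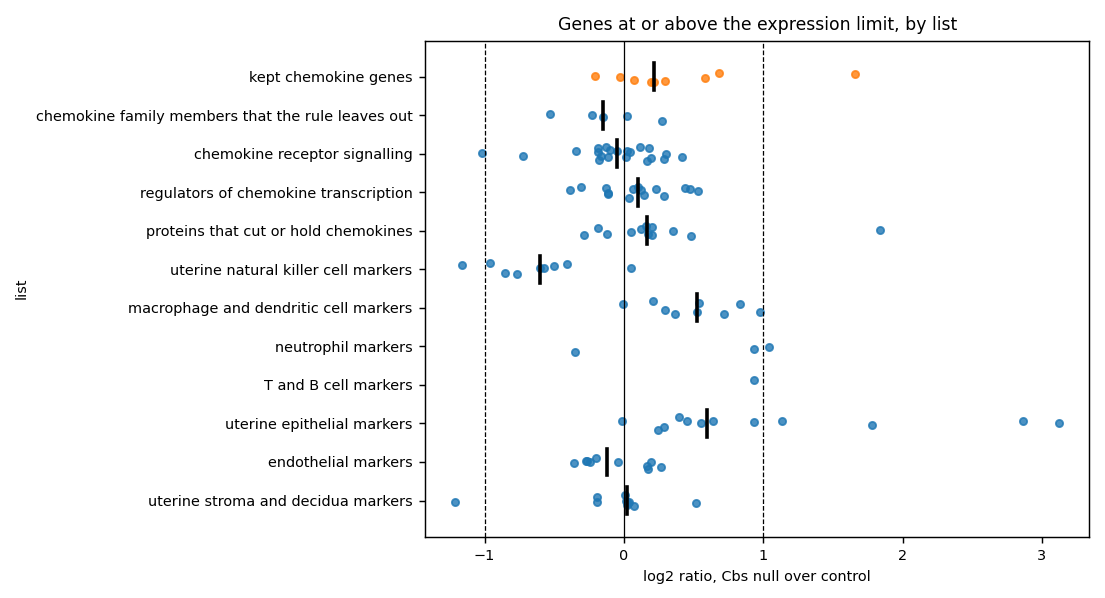
Log2 ratio of Cbs null over control for genes whose brightest probe set had a mean signal at or above the limit, by list, each point a gene and each bar a median (lists with at least 5 such genes). The chemokine genes, in orange, have a median of 0.21, beside 0.02 for all kept genes. Cxcl17 and Cxcl16 are among them through their Cbs null value alone. The epithelial (0.59) and macrophage (0.52) medians are higher and that of the natural killer cell list (-0.60) is lower. The lists were chosen with earlier results of these data known, so this order is no independent result.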

How the data were processed

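Biotinylated cRNA from total RNA of implantation sites was hybridised to Affymetrix arrays, 1 per genotype, per the labels' protocols. Each deposited value is the linear intensity of a probe set, and the submitters' processing notes name GCOS 1.4. Its algorithm, its detection calls and the build behind the probe sets are not stated in those notes. The 2% trimmed mean was 200.08 on both arrays, so no scaling was added. Of the probe sets, 64 controls were left out. Genes came from the platform annotation, and 4 probe sets with several symbols, of which at least 1 fits the name rule, were left out.

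The floor was the 25th percentile (14.3) and the expression limit the 50th (70.0) of all signals of both arrays. Results are log2 ratios with no p-value. Lists hold 178 gene symbols, older names of some genes among them, and each gene on the array was taken at its brightest probe set. The tertiles are of mean signal among kept probe sets.

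The members and lists were chosen with earlier results of these data known. Named genes are members at the limit on an array or 2-fold apart, and in each list the 2 brightest and up to 3 that were 2-fold apart. Other members are given by receptor. Alternatives were quantile normalization, centring, removal of a loess trend (span 0.3), a floor at the 10th or 40th percentile, a pseudocount equal to the floor, limits at the 25th and 75th percentiles or none, and omission of probe sets for several transcripts. The scripts were tested on simulated data. Computation used Python 3.11 and statsmodels 0.14.6. The number of arrays limits the precision.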

Additional observations from a re-analysis of the deposited data

How the results depend on the processing

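The counts depended on the expression limit. With the limit at the 25th percentile, 37 chemokine probe sets were expressed on the control array and 39 on the Cbs null array, 40 were kept and 3 were at least 2-fold higher. At the 75th percentile 6, 6 and 6 remained under these definitions and 0 were 2-fold higher, because Cxcl17 is too dim to be kept. With no limit 3 were 2-fold higher. None was 2-fold lower under any of the 10 alternatives. The median ratio of 0.21 was lowest with no limit, at 0.00, where 24 of the 65 probe sets are below the floor on both arrays, and 0.16 to 0.24 under the others. The other alternatives that bear on the counts kept them within 1.5 times of those reported. Of 17 ratios of named probe sets under 6 alternatives, 2 of 102 values moved by more than 0.30, the SD of the difference between the 2 brightest kept probe sets of 2291 genes. Both were of Cxcr6, at 1.33 and 0.00 with floors at the 10th and 40th percentiles. The 2 ratios of Cxcl14 changed sign, with quantile normalization. No paired analysis was possible because each genotype has 1 array. Signal near the limit bounds what can be said of dim receptors.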
